A study of Arabidopsis thaliana with 11 samples.

Results

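HY5-VP16 is the light-signalling factor HY5 of Arabidopsis thaliana joined to VP16, a transcription activation domain of viral origin. Its binding was described here from the 3 HY5-VP16 libraries of the series, out of 11 samples in all, of which 8 carry a tagged HY5 protein. The members are the peaks and the genes that the authors listed for each library, and they were taken in 2 sets. The first set is shared by all 3 libraries and holds 3145 genes and 2261 regions. The second is shared by replicates 1 and 2 only and holds 5038 genes and 3679 regions.

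Each library was read against the Columbia (Col-0) control of its own set, an untagged line taken through the same Flag immunoprecipitation. HY5-VP16 replicates 1 and 2 belong to set 1 with 1 control, and replicate 3 belongs to set 3 with another. The construct, named 35S:FLASH-HY5-VP16 in the series' design text, is driven by the viral 35S promoter, so the protein is made outside its native pattern. The tag combines StrepII, histidine and Flag stretches. Whole seedlings of the Columbia ecotype, tagged and control alike, were kept in darkness at 21 °C for 3 days and then exposed for 2.5 h to white light simulated with LEDs (100 µmol per square metre and second). Nothing in the labels says whether replicates came from separate lines or separate growths, so the spread between them may be technical. HY5ox, the tagged protein without an added domain (3 libraries), and HY5-SRDX, with a repression domain (2 libraries), serve for comparison only. HY5ox replicate 1 shares the control of HY5-VP16 replicates 1 and 2, and HY5ox replicate 3 shares that of HY5-VP16 replicate 3. HY5ox replicate 2, in set 2, was read against a control labelled hy5.

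HY5 is a basic leucine zipper protein that accumulates in light, when the COP1 and SPA proteins no longer send it for degradation, and it binds promoters of genes for pigments, photoprotection, the clock and hormone responses. HY5 itself is generally held to lack a strong activation domain. VP16 recruits the transcription machinery and is fused to such factors to make them activators. Chromatin immunoprecipitation recovers DNA held by the tagged protein, and the same procedure in an untagged line measures what the antibody and the chromatin preparation recover without it. In whole seedlings, binding in fewer cells and weaker binding in each cell cannot be told apart.

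The libraries differed in depth and in yield of peaks. HY5-VP16 replicate 1 held 15.7 M tags (aligned reads; M stands for 1e6), replicate 2 held 19.7 M and replicate 3 held 56.0 M. The control of set 1 held 22 M tags and that of set 3 held 50.9 M, as recovered from the deposited control values. The deposited peak lists hold 9514 peaks for replicate 1, 13375 for replicate 2 and 2958 for replicate 3. Their gene lists hold 10301, 13148 and 3643 genes. The deepest library thus gave the fewest peaks. The caller's own estimate of the share of tags in peaks was 6.16% in replicate 1, 5.94% in replicate 2 and 1.83% in replicate 3. HY5ox replicate 3, from the same set as HY5-VP16 replicate 3, reached 10.1% and 10675 peaks. Because replicate 3 stands apart, results are given with and without it.

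The control removed a larger share of the candidates of replicate 3 than of the other libraries of the construct. To be kept, a candidate peak had to exceed its control 3-fold and the surrounding 10 kb 2-fold. Of 12378 candidates in replicate 3, 9282 (75%) were removed by the comparison with the control, against 8186 of 19873 (41.2%) in replicate 1 and 18820 of 35193 (53.5%) in replicate 2. The comparison with the surrounding 10 kb removed 10.9% of the candidates of replicate 1, 8.52% of those of replicate 2 and 1.11% of those of replicate 3. In counts these were 2173, 2998 and 138. No candidate was counted under both comparisons, and both shares are of all candidates. Local removal was low in replicate 3 beside the peaks kept as well. There it took 138 candidates beside 2958 kept, against 2173 beside 9514 in replicate 1 and 2998 beside 13375 in replicate 2. What lies behind this was not tested. In HY5ox replicate 3, read against the same control, 44.6% of the candidates were removed by the control. Peaks close to the 3-fold limit, under 4-fold, made up 19.3% of the list of replicate 1, 25.4% of that of replicate 2 and 52.8% of that of replicate 3.

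Of 17192 regions with a peak in any HY5-VP16 library, 2261 (13.2%) were listed in all 3 and 3679 (21.4%) in replicates 1 and 2 only. Peaks were joined into 1 region where they overlapped by at least 1 bp. The remaining regions were 3323 of replicate 1 alone, 7232 of replicate 2 alone, 244 of replicate 3 alone, 251 of replicates 1 and 3 and 202 of replicates 2 and 3. The regions of all 3 libraries took 76.4% of the peaks of replicate 3, 23.8% of those of replicate 1 and 16.9% of those of replicate 2. Peak centres in regions of all 3 lay a median of 41 bp apart between replicates 1 and 2, 32 bp between 1 and 3 and 34 bp between 2 and 3.

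Regions found in all 3 libraries carried more tags in replicates 1 and 2 than regions that replicate 3 did not list. Levels are given as normalised tags, the tags in a peak scaled to a library of 10 M tags, and the control is scaled in the same way. In replicate 1 the median peak held 86.7 normalised tags in regions of all 3 (quartiles 69.5 and 109), 56.1 in regions of replicates 1 and 2 only (47.2 and 67.5) and 47.2 in regions of its own. In replicate 2 the medians were 62.3, 42.6 and 35.0 normalised tags in the same order. The control tags under these peaks moved less, with medians of 10.01, 9.10 and 9.55 per 10 M in replicate 1 and 7.28, 6.37 and 7.28 in replicate 2. The median deposited fold over the control was therefore highest in the regions of all 3, at 8.79 in replicate 1 and 8.62 in replicate 2, against 6.22 and 6.48 in the regions of replicates 1 and 2 only. These are descriptions of lists built on the same values, and they carry no test.

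**Figure D1:**
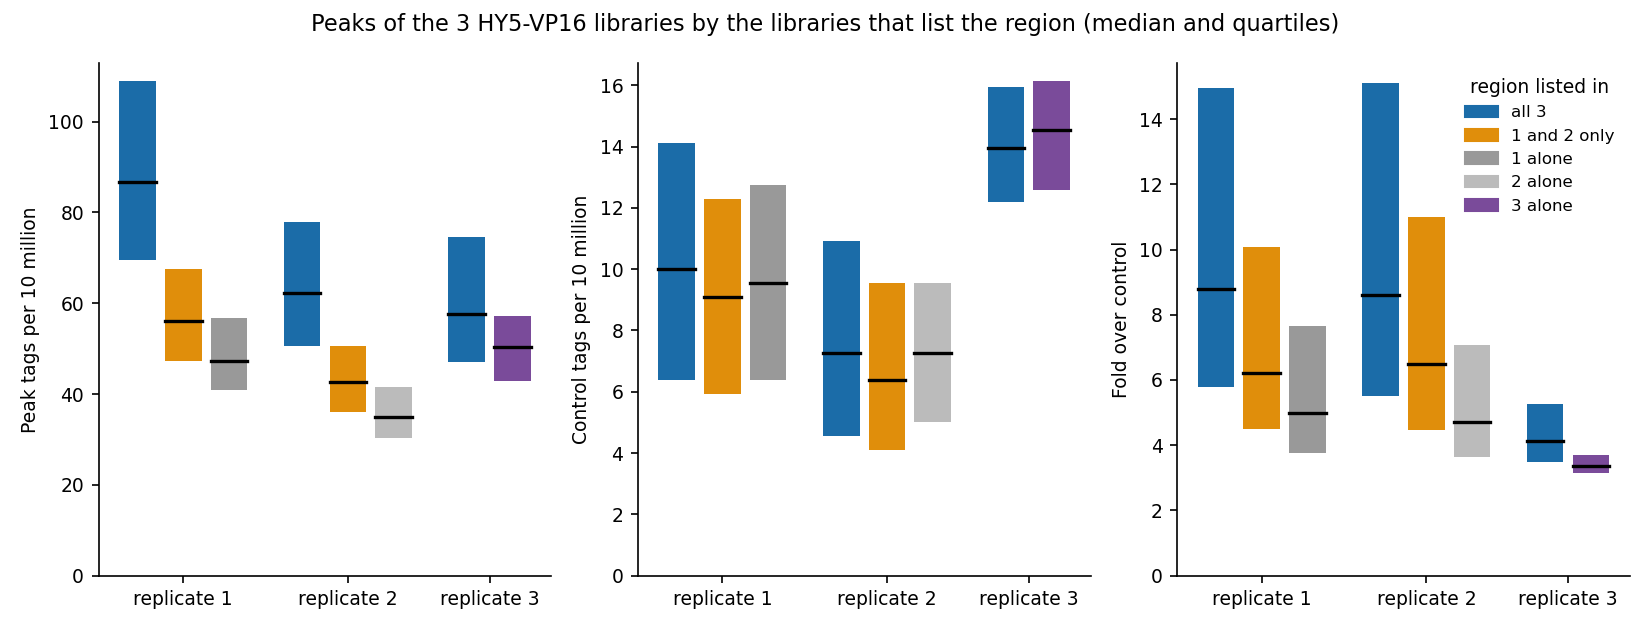
Tags per 10 M in the peak, normalised tags of the control in the same window and the deposited fold over the control, for peaks of each HY5-VP16 library grouped by the libraries that list the region. Bars span the quartiles and black lines mark medians. In replicates 1 and 2 the regions of all 3 libraries lie above the others in tags and fold, while control tags differ less between the groups of regions drawn, with the regions of all 3 at a median of 13.96 in replicate 3.

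Across the 2261 shared regions the tagged libraries ranked regions alike, while controls from different sets did not. Spearman's rho across these regions for normalised tags was 0.68 between replicates 1 and 2, 0.64 between 1 and 3 and 0.62 between 2 and 3. For control tags it was 0.74 between replicates 1 and 2. That pair counts the same control library in overlapping windows, so a high value was fixed in advance. With different control libraries it was 0.20 between 1 and 3 and 0.17 between 2 and 3. For the deposited fold it was 0.71 for the pair that shares a control and 0.28 and 0.23 for the pairs that do not. The pair that shares a control also shares a set, so the 2 cannot be told apart. The fold over the surrounding 10 kb, which uses no control, gave 0.65, 0.61 and 0.62 for the same pairs. These values describe the regions, which share the caller's thresholds and were all listed in every library; regions are not replicates.

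**Figure D2:**
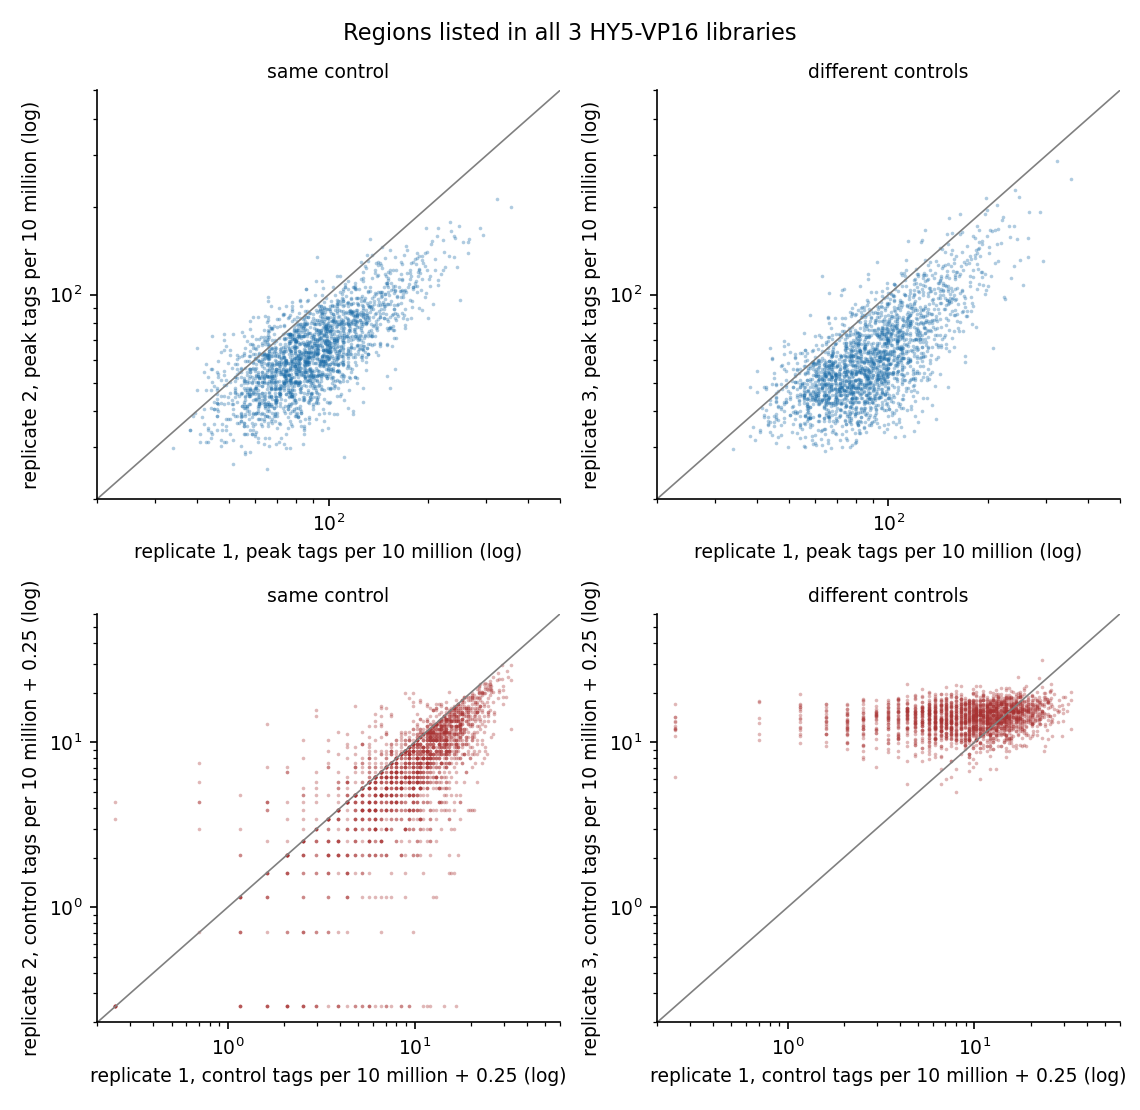
Each point is 1 of the 2261 regions listed in all 3 HY5-VP16 libraries, with replicate 1 on the x axis and replicate 2 (left) or 3 (right) on the y axis, on log axes; the grey line marks equal values. Tags in the peak (top) rise together in both comparisons, with rho of 0.68 and 0.64. Control tags (bottom, shown with 0.25 added) rise together where the control library is the same and form a flat band where it is not, with rho of 0.74 and 0.20.

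The control of set 3 was higher and more even under these regions than the control of set 1. Since peak windows were 253 bp wide in replicate 1, 191 bp in replicate 2 and 257 bp in replicate 3, levels are compared per 1000 bp of window. The median control level in the 2261 regions was 39.6 normalised tags per 1000 bp in the windows of replicate 1, 38.1 in those of replicate 2 and 54.3 in those of replicate 3. The tagged libraries held a median of 343, 326 and 224 normalised tags per 1000 bp in the same order. The median fold in these regions was 8.79 in replicate 1, 8.62 in replicate 2 and 4.14 in replicate 3. It was higher in replicate 1 than in replicate 3 in 2063 of the 2261 regions (91.2%), with a median ratio of 2.01. The variance of the control tag count across these regions was 6.50 times its mean in replicate 1, 6.11 times in replicate 2 and 2.68 times in replicate 3, where counting error alone gives a ratio near 1.

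Very high folds in set 1 rested on windows with no control tag at all. The control was at 0 in 74 peaks of replicate 1, 250 of replicate 2 and none of the 2958 of replicate 3, where the lowest count was 24 tags. All 20 of the highest deposited folds in replicate 1 were of this kind, and so were all 20 in replicate 2. The highest in replicate 1, on chromosome 5 at 694544 to 694796 (TAIR10) and assigned to AT5G02960 and AT5G02970, has a deposited fold of 678 from 154 normalised tags. A control count of 0 allows up to 3 tags. By that limit the peak was at least 113-fold above its control, leaving aside the counting error of its own tags. Of the 295 regions with such a peak, 58 were listed in all 3 libraries. In replicate 3 the same regions had a median of 67 control tags (range 30 to 93) and a median fold of 4.14. The highest fold in replicate 3 was 18.9.

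HY5's own promoter gave one of the strongest peaks in every library. It ranked second of 9514 by the caller's score in replicate 1 and first in replicates 2 and 3. The peak lay on chromosome 5 at 3594935 to 3595187 in replicate 1, at 3594921 to 3595111 in replicate 2 and at 3594929 to 3595185 in replicate 3, with its centre 69, 24 and 65 bp before the start of AT5G11260. It held 323 normalised tags in replicate 1, 213 in replicate 2 and 288 in replicate 3 (275 ± 56.0, SD, n = 3). The control of the set held 18.2, 18.7 and 21.0 normalised tags there, the counts being 40, 41 and 107 tags. The deposited folds were 17.8 (95% exact interval of counting error 12.9 to 25.2), 11.4 (8.29 to 16.2) and 13.7 (11.2 to 16.8). The 3 intervals overlapped, and all 3 folds lay far above the library medians of 6.18, 5.57 and 3.91. Intervals here and below cover counting error only, since reads of 1 fragment cannot be told apart.

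Each library also had a weaker peak inside the HY5 gene, with its centre 619 bp after the start in replicate 1, 585 bp in replicate 2 and 925 bp in replicate 3. The windows of replicates 1 and 2 overlapped, and that of replicate 3 overlapped neither. The peaks held 168, 132 and 97.6 normalised tags at folds of 8.77, 9.69 and 4.36. The tagged lines carry an added copy of the HY5 coding sequence, and in the gene body reads from it and from the native gene cannot be told apart. The promoter peak was also listed in the 3 HY5ox libraries, at 287, 238 and 400 normalised tags and folds of 13.1, 8.47 and 15.9. A peak inside the gene was listed in HY5ox replicate 1, 742 bp after the start, and in neither of the other HY5ox libraries.

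The 10 genes with the best mean rank among those in all 3 libraries held at least 185 normalised tags on average. After HY5 came AT4G37240, which the reference table leaves without a name, with 356 normalised tags in replicate 1, 199 in replicate 2 and 249 in replicate 3 at 1557 to 1564 bp before its start. Its folds were 35.7 (23.3 to 57.3), 34.1 (19.5 to 63.8) and 15.4 (12.4 to 19.5), so the interval of replicate 3 lay below that of replicate 1 and met the lower end of that of replicate 2. PP2CA (AT3G11410), a phosphatase that holds back abscisic acid signalling, held 248, 172 and 216 normalised tags at folds of 32.1, 29.1 and 18.9. Its peak in replicate 3, on chromosome 3 at 3585930 to 3586186, had the highest fold of that library. SIG5, locus AT5G24120, which encodes a sigma subunit used by the plastid RNA polymerase in light, held 287, 170 and 192 normalised tags. Its peak, 1239 to 1308 bp before the SIG5 start, was also assigned to the neighbouring AT5G24130, and the lists cannot say which of the pair it serves.

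CPC (AT2G46410), a small MYB protein that promotes root hairs, held 265, 156 and 192 normalised tags 1718 to 1756 bp before its start, in a window also given to AT2G46420. GI (AT1G22770), a clock and flowering protein, held 221, 154 and 180 normalised tags, but its folds ran from 48.4 in replicate 2 (interval 23.2 to 121) to 11.01 in replicate 3 (8.80 to 13.9). Its control counts were 17 and 7 tags in set 1 and 83 in set 3. AT1G21000 held 240, 159 and 172 normalised tags. AT2G30032, whose window is shared with the kinase gene MAPKKK14 (AT2G30040), held 213, 159 and 203. In 8 of the 10 genes the strongest peak lay in the promoter in all 3 libraries.

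The other members of these 10, PUP4 and ATL5, were bound inside the transcribed unit. PUP4 (AT1G30840), of the purine permease family, had its peak 974 to 1001 bp after the start, on chromosome 1 at 10975321 to 10975573 in replicate 1. It held 241, 157 and 228 normalised tags. Its control count was 68 tags in replicate 1, 59 in replicate 2 and 77 in replicate 3, which is 30.9, 26.8 and 15.1 per 10 M. PUP4 alone among the 10 had its highest fold in replicate 3, at 15.03 (11.9 to 19.2) against 7.81 (6.0 to 10.2) and 5.84 (4.40 to 7.85), and the interval of replicate 3 lay above both others. ATL5 (AT3G62690), of a family of RING-finger proteins, held 198, 170 and 215 normalised tags 478 to 505 bp after its start, at folds of 16.1, 18.7 and 14.2.

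**Figure D3:**
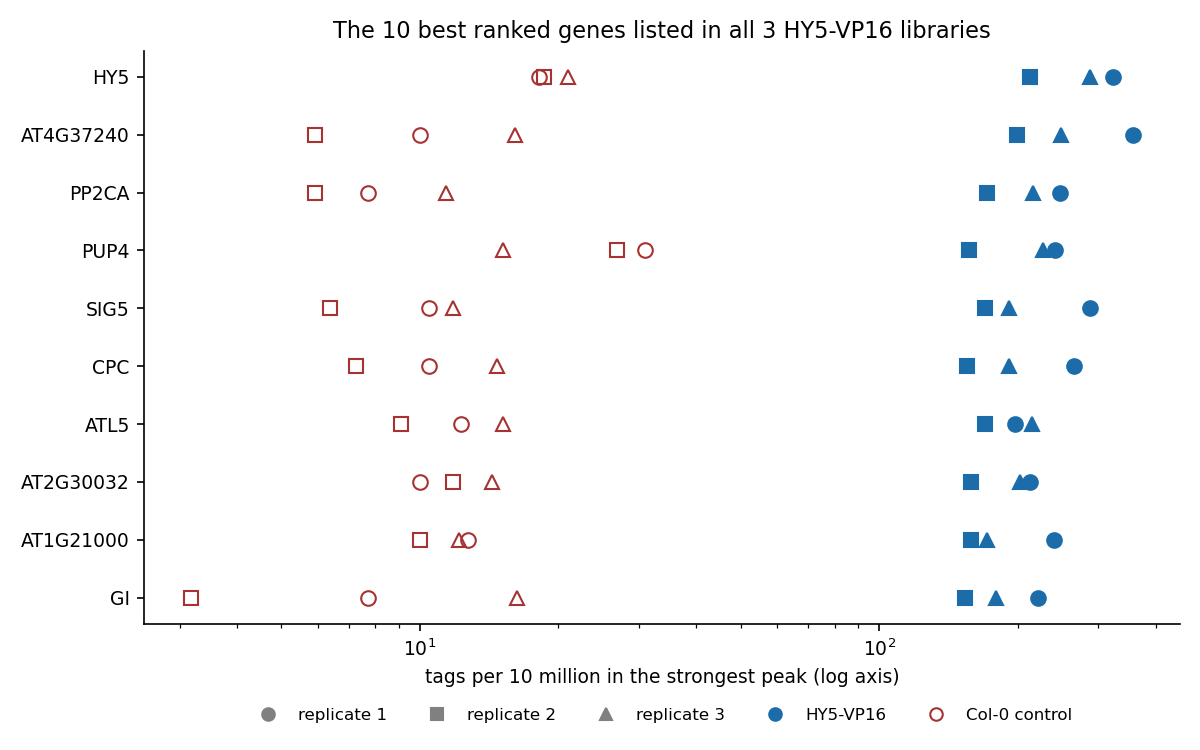
Tags per 10 M in the strongest peak of each of the 10 best ranked genes of all 3 HY5-VP16 libraries (filled) and of the Col-0 control in the same window (open), on a log axis, with 1 symbol per replicate; replicates 1 and 2 share a control library but not a window. Every filled symbol lies at 154 or above and every open one at 30.9 or below, and the control of replicate 3 was the highest of the 3 in 8 of the 10 genes.

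Replicate 2 had the lowest tags of the 3 libraries in 10 of these 10 genes and the narrowest window. Per 1000 bp it was lowest in 2 of them and replicate 3 in 7. The fold was lowest in replicate 3 in 7 of the 10 genes, between the others in 2, HY5 and AT2G30032, and highest in PUP4. The part that window width, depth and the control play in these orders was not tested.

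At the gene level, 3145 genes were listed in all 3 libraries, of which 3085 are among the 37899 annotated nuclear genes of the reference (8.14%). The share of all annotated genes listed was 26.8% in replicate 1, 34.2% in replicate 2 and 9.43% in replicate 3, and 13.2% were listed in replicates 1 and 2 only. Of the 3145 genes, 2795 (88.9%) were assigned 1 region that was listed in every library; for the other genes no single region was. A promoter peak was present in every library for 2668 (84.8%), and 180 (5.72%) had peaks in the gene body alone. Protein-coding genes supplied 2947. Without replicate 3, 8183 genes were listed in both remaining libraries. The authors' deposited merged list of replicates 1 and 2 holds 6940 genes, and 6811 of these are among the 8183.

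Every one of the 3145 genes was also listed in at least 1 HY5ox library. HY5ox replicate 3, which shares the control of HY5-VP16 replicate 3, listed 3143 of them (99.9%), HY5ox replicate 1 listed 3114 (99.0%) and HY5ox replicate 2 listed 2897 (92.1%). The HY5-SRDX lists held 72.4% and 85.4%. Of all annotated genes, the lists of HY5ox replicates 1, 2 and 3 held 35.8%, 22.2% and 31.6%, and those of HY5-SRDX 42.7% and 31.1%. All 8 tagged libraries listed 1913. Several of these libraries share controls, so the overlaps are descriptions of lists.

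Most genes of replicates 1 and 2 only were in each HY5ox list too. HY5ox replicate 1 listed 4303 of the 5038 (85.4%), replicate 2 listed 2678 (53.2%) and replicate 3 listed 3915 (77.7%), against 35.8%, 22.2% and 31.6% of all annotated genes, while 386 were in no HY5ox list and 76 in no other tagged list. By region, HY5ox replicate 3 had a peak in 2580 of the 3679 regions of replicates 1 and 2 only (70.1%, 95% Wilson interval 68.6 to 71.6), against 2244 of the 2261 regions of all 3 (99.2%, 98.8 to 99.5). Its median fold there was 4.86, against 9.17 in the regions of all 3, and its median control level was 16.1 normalised tags in both. So most of these regions, which HY5-VP16 replicate 3 did not list, were above 3-fold in another tagged library read against the same control. Of the 244 regions in replicate 3 alone, HY5ox replicate 3 had a peak in 223 (91.4%) and HY5ox replicate 1 in 130 (53.3%). The Wilson intervals treat regions as independent, but regions are not replicates, and these shares carry no test.

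The best ranked of the genes in replicates 1 and 2 only held fewer tags than those above, bar the first. That gene, AT3G51238, lies beside F3H and entered the group through an assignment: its peak, with 250 and 95.8 normalised tags, belongs to a region of all 3 libraries, and the shifted peak of replicate 3 was assigned to F3H and AT3G51230 instead. This was the case for 16 of the 5038 genes, whose regions were listed in all 3 libraries. MYB73 (AT4G37260), a MYB transcription factor, held 94.3 and 94.8 normalised tags at folds of 12.2 (7.36 to 21.5) and 23.1 (11.9 to 51.4). AT3G59120 held 117 and 85.1 at folds of 25.6 and 37.4, on 10 and 5 control tags. GPP1 (AT4G25840), a glycerol-3-phosphatase, held 117 and 73.0 tags at folds of 11.9 and 13.4.

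AT1G04680 passed narrowly, with 108 and 109 normalised tags at folds of 3.31 (2.50 to 4.42) and 3.51 (2.66 to 4.68) over 72 and 68 control tags. At AT2G30945 the control of set 1 had 7 tags in the window of replicate 1 and 0 in that of replicate 2, and the peak was at least 62.0-fold above the latter by the same limit of 3 tags, or 49.9-fold by the lower end of the exact interval. BBX22 (AT1G78600), a B-box protein that promotes light responses, was listed in both through different promoter windows, 641 and 206 bp before the start. The remaining leaders were AT5G18661, AT5G15340 and AT1G80380, at folds of 7.73, 6.63 and 10.1 in replicate 1 and 7.59, 3.56 and 8.91 in replicate 2. All 10 leading genes of this group were listed in HY5ox replicates 1 and 3. In the latter, AT1G80380 held 119 normalised tags at a fold of 6.07, and MYB73 held 111 at 6.15.

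Genes listed in replicate 3 alone numbered 124, and 119 of them were in the list of HY5ox replicate 3. The best ranked, AT1G68140, held 80.8 normalised tags at a fold of 5.71 (4.45 to 7.43) around its start. A window given to AT5G20740 and AT5G20750 held 78.2 at 5.23, and one given to AT3G52110 and GR1 (AT3G52115) held 75 at 3.43 (2.78 to 4.27).

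Peaks of both shared groups gathered just before start sites. In replicate 1, 81.4% of peaks in regions of all 3 libraries (95% Wilson interval 79.7 to 82.9) and 80.5% of those in regions of replicates 1 and 2 only (79.2 to 81.7) overlapped the 2000 bp before a gene's start. Centres within 250 bp before to 50 bp after a start made up 44.7% (42.7 to 46.8) and 40.4% (38.9 to 42.0). Their median positions were 139 and 149 bp before the start. Regions of replicate 2 alone lay differently, with 63.3% of peaks in promoters (62.2 to 64.4), 27% in gene bodies without a promoter overlap and 22.6% near a start (21.6 to 23.6). Those of replicate 3 alone had 65.2% in promoters (59.0 to 70.9) and 25.8% near a start. More than 1 gene was assigned to 37.7% of the peaks of replicate 1 in regions of all 3. The intervals treat peaks of 1 library as independent, but peaks are not replicates, so the shares are descriptions without a test.

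**Figure D4:**
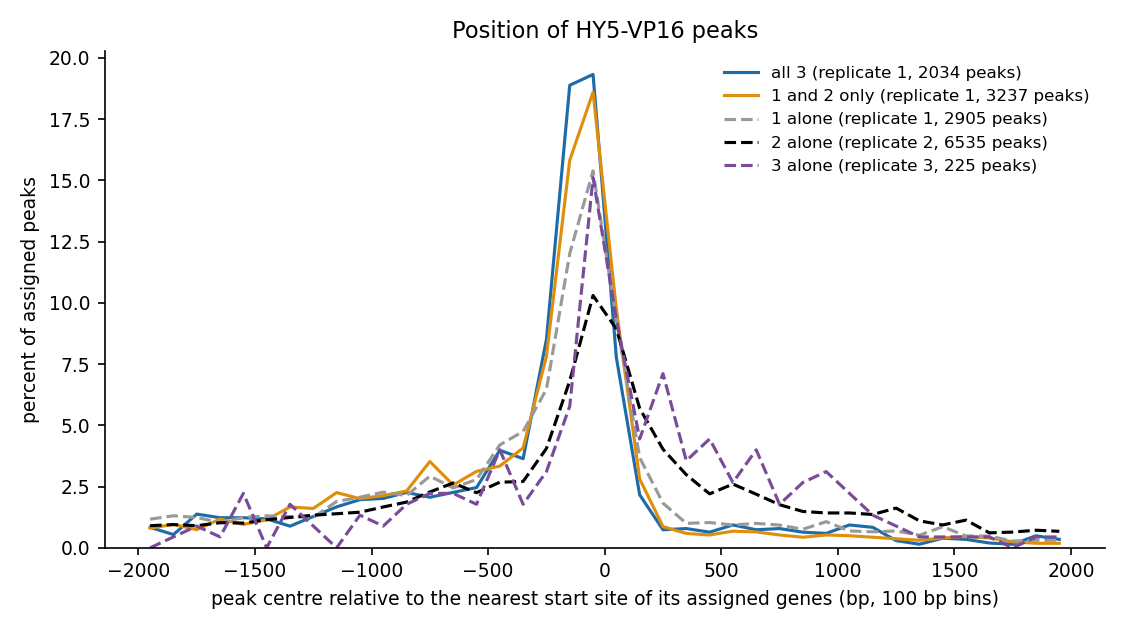
Distance of the peak centre from the nearest start site of the genes the peak was assigned to, in bins of 100 bp, as a percent of assigned peaks, for each group of regions in 1 library. The regions of all 3 libraries and of replicates 1 and 2 only peak just before the start, with medians at -139 and -149 bp, while those of replicate 2 alone have a lower peak and more centres inside genes.

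Set against HY5ox, the 3 HY5-VP16 libraries had lower shares of peaks near a start, without overlap, and overlapped with it in the other 3 of 4 measures taken per library. With 3 libraries each, a two-sided exact permutation test cannot give a p below 0.1, and p-values were adjusted over the 4 tests by Benjamini-Hochberg. The share of peaks near a start was 38.6%, 30.9% and 40.5% in HY5-VP16 and 41.5%, 45.4% and 41.7% in HY5ox (36.7 ± 5.06% against 42.9 ± 2.18%, SD, n = 3; exact p = 0.1, adjusted 0.4). All 3 HY5-VP16 values lay below all 3 HY5ox values, at a difference of -6.20 percentage points, but the smallest p this design allows is that reached. Within set 1 the difference was -6.77 and within set 3, with 1 library each, -1.20 points.

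Median normalised control tags were 9.55, 7.28 and 13.96 in HY5-VP16 and 10.9, 17.04 and 16.3 in HY5ox (exact p = 0.2, adjusted 0.4). The difference was -2.50 within set 1 and -2.36 within set 3. These tags were counted in windows of 253, 191 and 257 bp in HY5-VP16 and 273, 283 and 301 bp in HY5ox. Per 1000 bp of window, the control medians in set 1 were 37.8 and 38.1 in HY5-VP16 against 39.98 in HY5ox. In set 3 they were 54.3 against 54.2. HY5ox replicate 2, read against the hy5 control, had 60.2. The median fold over the control was 5.22 ± 1.17 in HY5-VP16 and 5.21 ± 1.02 in HY5ox (SD, n = 3; exact p = 1). Within sets the difference was -0.47 in set 1 and -1.02 in set 3. The median fold over the surrounding 10 kb was 3.03 ± 0.36 and 3.12 ± 0.24 (exact p = 0.6, adjusted 0.8), with -0.17 in set 1 and 0.05 in set 3. Over the 2000 best scored peaks of each library its difference was -1.15 (exact p = 0.1). A p that misses the threshold does not show that the constructs bind alike.

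Many genes of light signalling and its outputs were listed in all 3 libraries. Lists of 188 genes in 16 groups were drawn up from general knowledge of HY5 and of seedlings, with earlier results of these data known, so their shares are descriptions. Of the 188 genes, 76 (40.4%) were listed in all 3 libraries, against 8.14% of all annotated and 10.7% of protein-coding genes. In replicates 1 and 2 only there were 31 (16.5%), against 13.2% of all annotated and 17.2% of protein-coding genes, so near the background. In none there were 45. The share in all 3 was above that of all annotated genes in 15 of the 16 lists, including 6 highly expressed housekeeping genes and 10 seed and flower genes chosen for contrast. The shade list and the seed and flower list, with 1 of 10 members each, lay below the 10.7% of protein-coding genes. In all 3 libraries the windows of PHYB, COP1, SPA1, SPA3, HYH, BBX29, PRR9, TOC1 and LUX were also assigned to a neighbouring gene. These are examples, and the lists cannot say which gene such a window serves.

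**Figure D5:**
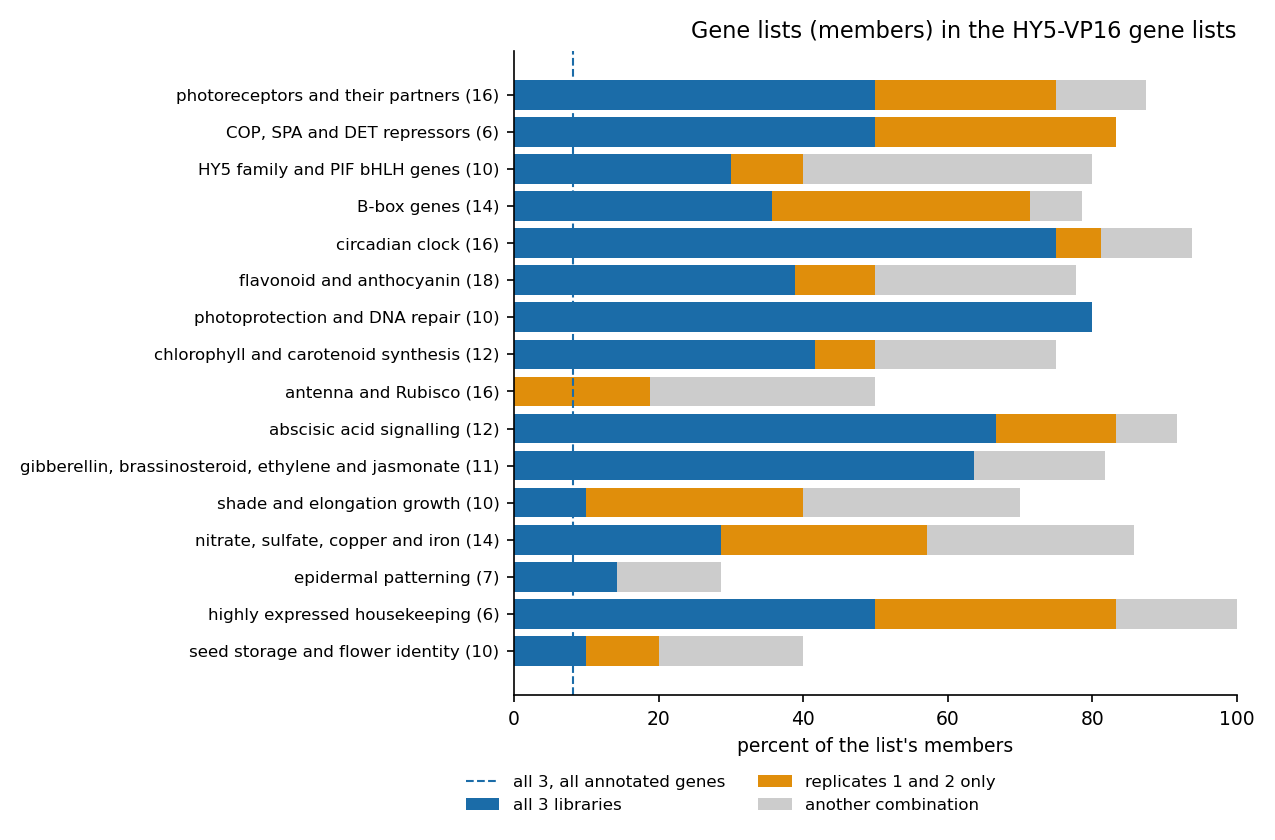
Percent of each list's members (number in brackets) listed in all 3 HY5-VP16 libraries, in replicates 1 and 2 only or in another combination of libraries. The dashed line marks the 8.14% of all annotated genes listed in all 3. Photoprotection and clock genes have the highest shares in all 3 (80% and 75%), and no antenna or Rubisco gene is in all 3.

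Among light receptors and their partners, 8 of 16 were in all 3 libraries and 4 in replicates 1 and 2 only. RUP1 (AT5G52250), a repressor of the UV-B receptor UVR8, was the strongest, with 185, 134 and 105 normalised tags in replicates 1, 2 and 3 and folds of 16.4, 24.5 and 6.11. PHYA and PHYB, the main far-red and red light receptors, were weaker, with 91.1, 70.4 and 44.4 tags at the PHYA start and 66.9, 61.8 and 61.0 1306 to 1326 bp before PHYB. The fold of PHYA in replicate 3, 3.18, was close to the limit. CRY1 and PHYE were in no list.

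Of the 6 COP, SPA and DET repressors, which act against HY5 in darkness, COP1, SPA1 and SPA3 were in all 3 libraries. SPA1 (AT2G46340) held 173, 106 and 147 normalised tags at folds of 8.11, 8.91 and 10.4, whose intervals overlapped. SPA3 (AT3G15354) held 138 and 119 tags at folds of 13.2 and 21.8 in replicates 1 and 2 and 48.7 at 4.13 in replicate 3. DET1 was in no list. HYH, the closest relative of HY5, held 117, 66.4 and 59.6 normalised tags at its promoter, in a window also given to AT3G17611. HFR1, a helix-loop-helix protein of far-red light signalling, had its strongest peak at a different place in each library, 70, 1050 and 1531 bp before the start, and the first and last of these regions were listed in all 3. Of the PIF genes, whose products promote growth in darkness, PIF1 and PIF4 were in no list, PIF3 in replicate 1 alone and PIF5 and PIF7 in replicate 2 alone.

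B-box genes, several of whose products bind HY5, had 5 of 14 members in all 3 libraries and 5 in replicates 1 and 2 only. BBX28 (AT4G27310) held 108, 116 and 94.6 normalised tags at folds of 18.3, 21.3 and 7.89. BBX29 (AT5G54470) held 108, 45.1 and 72.8 tags. Its folds were 60.2, 101 and 5.53, on 4 and 1 control tags in set 1 and 67 in set 3. BBX24 (AT1G06040), a repressor of light responses, held 111 and 64.3 tags around its start in replicates 1 and 3, and 57.3 at 278 bp before it in replicate 2.

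Of 16 clock genes, 12 were in all 3 libraries. After GI, the strongest were PRR9, TOC1 and LUX. PRR9 (AT2G46790) held 142, 126 and 97.4 normalised tags at folds of 10.4, 9.25 and 5.97. TOC1 (AT5G61380) held 166, 86.7 and 103 at folds of 7.31, 6.84 and 6.73, and LUX (AT3G46640) held 136, 89.2 and 93.5 at 14.3, 15.1 and 5.28. The morning genes CCA1 and LHY had 56.7, 41.1 and 51.2 and 88.6, 66.4 and 83.3 tags. ZTL was in no list, and PRR7 was in replicates 1 and 2 only.

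The flavonoid and anthocyanin list had 7 of 18 genes in all 3 libraries. F3H (AT3G51240), an early enzyme of the pathway, held 250, 95.8 and 132 normalised tags at folds of 21.2, 8.77 and 10.8. FLS1 (AT5G08640), which makes flavonols, held 159, 103 and 113 at folds of 5.37, 5.54 and 7.19. MYB12 (AT2G47460), the activator of flavonol genes, held 157 and 132 in its promoter in replicates 1 and 3, while its strongest peak in replicate 2, with 105 tags, lay in the gene. CHS (AT5G13930), the entry enzyme, was modest, with 84.1, 74.5 and 66.0 tags at folds of 5.6, 3.72 and 5.69. DFR was weakest in replicate 3, where its 32.7 tags ranked 2885 of 2958. PAP1, MYB111, PAL1 and UGT78D1 were in no list.

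Photoprotection and DNA repair genes had 8 of 10 members in all 3 libraries. ELIP1 (AT3G22840), an early light-induced protein, held 210, 132 and 166 normalised tags at folds of 10.5, 12.1 and 13.4, so that replicate 3 was not the lowest. ELIP2 (AT4G14690) held 143, 84.1 and 112. The photolyase genes UVR3 and PHR1, whose products repair UV lesions in DNA, held 131, 84.6 and 75.3 and 92.4, 65.4 and 91.4 tags, though the strongest UVR3 peak of replicate 2 lay 1333 bp before the start, beside a region near the start that all 3 libraries listed. PHR1 (AT1G12370) showed folds of 33.9 and 35.9 in replicates 1 and 2 on 6 and 4 control tags, and 7.88 in replicate 3 on 59. OHP and NPQ1 were in no list.

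Pigment synthesis genes had 5 of 12 members in all 3 libraries, at lower levels. PSY (AT5G17230), the first enzyme of carotenoid synthesis, held 101, 64.4 and 74.6 normalised tags, and HEMA1 (AT1G58290), at the start of chlorophyll synthesis, held 68.8, 39.5 and 45.5 at folds of 3.44, 3.10 and 3.56. Of 16 antenna and Rubisco genes, none was in all 3 libraries, 3 were in replicates 1 and 2 only and 8 in none. LHCB6 was the one member listed in replicate 3, at 58.4 tags and a fold of 3.53.

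Abscisic acid signalling had 8 of 12 members in all 3 libraries. Beside PP2CA, the related phosphatase genes ABI1, ABI2 and HAI1 were among them. HAI1 (AT5G59220) held 148, 133 and 126 normalised tags inside the gene, 1880 to 1925 bp after the start. ABF3 (AT4G34000) and ABF4 (AT3G19290), factors that act on abscisic acid response genes, held 124, 104 and 97.4 and 133, 94.3 and 59.8 tags. ABI5 (AT2G36270) held 91.1, 64.4 and 80.1. Of 11 genes of other hormones, 7 were in all 3. JAZ1, a jasmonate repressor, held 126, 79.1 and 85.5 tags, and ERF4, an ethylene response repressor, held 134, 97.3 and 87.6, the last in another window. DWF4, of brassinosteroid synthesis, was bound 2198 to 2382 bp after its start at 85.4, 68.4 and 49.1 tags.

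Among nutrient genes, 4 of 14 were in all 3 libraries. APR2 (AT1G62180), of sulfate assimilation, held 126, 98.8 and 154 normalised tags at folds of 11.6, 12.8 and 10.9 and ranked 34 in replicate 3. SULTR1;2, FRO2 and SPL7, for sulfate uptake, iron reduction and copper response, held 53.2, 64.4 and 63.0 in replicate 3. Shade and elongation genes had 1 of 10 in all 3, HAT2. The patterning list had 1 of 7, CPC, and the other members bar GL3 were in no list. Among genes chosen for contrast, ACT2, UBQ10 and GAPC1 were in all 3, with 48.2, 60.1 and 48.9 normalised tags in replicate 3 at folds of 3.60, 3.29 and 3.66, and OLEO1, a seed oil body protein, had 56.4 at 3.08. Those folds lie below the median of 4.06 that the strongest peaks of all 3145 genes had in replicate 3. The replicate 3 medians of the light receptor list (3.64) and the pigment synthesis list (3.68) also lay below it. Those of most other lists lay above. The housekeeping share in all 3, 50%, equalled that of the light receptor list. In replicates 1 and 2 the folds of ACT2 were 25.2 and 8.47 and those of GAPC1 18.7 and 10.9, above the medians of 8.41 and 8.31 there, while UBQ10 had 6.10 and 6.16 and OLEO1 8.36 and 5.09.

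Of 326 annotated miRNA genes, 8 (2.45%) were listed in all 3 libraries and 18 (5.52%) in replicates 1 and 2 only. Among all annotated genes the shares were 8.14% and 13.2%, so miRNA genes were listed less often in both groups. MIR163 (AT1G66725) held 103, 61.8 and 74.1 normalised tags at folds of 7.66, 10.5 and 4.89. MIR777 (AT1G70645) held 126, 95.3 and 80.7 at 5.02, 4.11 and 4.06. MIR866 (AT5G40384) held 109, 80.1 and 65.0 at 13.3, 9.56 and 5.42. The others were MIR159a, MIR825, MIR158a, MIR168a and MIR156d. In 6 of the 8 the strongest peak of replicate 1 was also assigned to a neighbouring gene.

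Some genes in all 3 libraries lay where the control was high. NF-YC10 (AT1G07980), AT1G07985 and AT1G07990 share 1 window of replicate 1, in which the control of set 1 held 77 tags, or 35.0 per 10 M. The tagged library held 129 per 10 M there at a fold of 3.68 (2.81 to 4.84), and replicate 3 held 91.7 at 7.07 (5.46 to 9.28), on 13 normalised control tags. CYP710A1 (AT2G34500), of sterol synthesis, had 73 control tags and a fold of 3.05 in replicate 1. AT4G39838 had 72 and 102 control tags in replicates 1 and 3 at folds of 4.46 and 5.40.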

How the data were processed

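The 3 HY5-VP16 Flag immunoprecipitates were compared through the authors' deposited peak and gene lists. The tools, per the submitters' processing notes, were HOMER 4.9.1, Bowtie2 2.3.0 and CASAVA 1.8.2, with TAIR10 as the build. Each library had its own peak call, per the file headers, at a false discovery rate of 0.001, 3-fold and Poisson p 0.0001 over the control, and 2-fold and p 0.001 over 10 kb. The deposited signal is tags per 10 M tags. Deposited tag counts are whole for the smaller library of each tagged and control pair, and those of the larger are scaled to it. Whole control tags and the control depth were recovered from the step of the scaled values (100% whole within 0.06). Ranks follow the deposited score of the caller. The deposited fold and local fold are ratios of tags. The deposited p-value was used only as the caller's threshold. The authors' gene lists hold genes whose 2000 bp before the start or body a peak overlaps.

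Here, peaks were joined by overlap of at least 1 bp with Python 3.11.15, pandas 2.3.3 and numpy 2.4.6, after a check on simulated peaks. A gene's value is its strongest peak by score. Interval limits are exact (scipy 1.17.1) or Wilson, at 95%. Named genes are HY5, the 10 best mean ranks of each shared group, 5 of replicate 3 alone, members of each gene list in all 3 libraries with up to 4 others, and the 5 with most control tags; the miRNA genes were chosen after their values were seen. Members and lists were chosen with earlier results of these data known. Of the lists' 188 symbols, 184 matched the reference table (TAIR10.1, used for names and gene type only); the others carry its names. Of 15390 listed identifiers, 15177 (98.6%) were in it. Replicate numbers of HY5ox and HY5-VP16 were checked for pairing: over 2877 genes listed in all 6 libraries, same-numbered libraries' deviations of log2 tags correlated at 0.33, 0.12 and 0.56. Numbers 1 and 3 also share a set by the labels, number 2 does not, and HY5-VP16 replicate 2 correlated more with HY5ox replicate 1 of its own set (0.18). No sequence is shown, since no genome was used here.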

Additional observations from a re-analysis of the deposited data

How the results depend on the processing

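Requiring at least 8-fold over the control cut the genes of all 3 libraries to 115 and those of replicates 1 and 2 only to 2416, and the regions to 83 and 1775; replicate 3 holds 120 such peaks. Leaving out 1 HY5-VP16 library at a time gave 3330 to 8183 genes and 2450 to 5908 regions shared by the remaining pair, the highest without replicate 3. With the latter left out the group of replicates 1 and 2 becomes 8183 genes and 5908 regions. Promoter peaks alone, or an overlap of 50% of the shorter peak, left each count within 1.5 times. The protein-coding background was 10.7% in place of 8.14%.

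Against HY5ox, the near-zero difference in median fold (0.013) reversed to -1.44 with the 2000 best scored peaks, -0.47 within set 1 and -1.02 within set 3 (the sets and control tags per 1000 bp were added after seeing the data). It was 1.02 among peaks of at least 8-fold. Leaving out 1 library gave -0.47 to 0.67. The local fold moved to -1.15 with the 2000 best scored peaks, reversed to 0.05 within set 3 and ran from -0.30 to 0.045 with 1 library left out. The share near a start kept its direction under every alternative run, at -8.12 to -3.33 points with 1 library left out. Control tags did so where they were not scaled to window width, at -6.42 to -3.0 tags with 1 library left out. Per 1000 bp of window the control difference over all libraries was -8.08. Within set 3 alone, the control medians per 1000 bp were 54.3 in HY5-VP16 and 54.2 in HY5ox, without that direction. A paired test with a replicate block cannot give an exact p below 0.25. It pairs libraries by number, and those numbered 2 share neither set nor control. Its differences of 0.013, -4.50, -0.09 and -6.20 equal the unpaired ones by construction. No call changed, which the limit on p made certain. The search for G-boxes in promoters was not run. The low control counts in set 1 limit single folds.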
